A study of Mus musculus with 24 samples.

Results

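The genes described here code for neuropeptides and for the proteins that make, store and release them from dense-core vesicles. They were taken by name from a list of 32 mouse genes, made up of 18 peptide precursors, 6 granins and granin-like proteins, 4 processing enzymes and 4 vesicle priming and membrane proteins. A gene was used where at least 1 probe set, the group of short probes that reads 1 transcript, was annotated to that gene alone. This held for 31 of the 32 genes, out of 18194 genes in the whole series. The 31 genes were read by 35 of the 34958 probe sets naming 1 gene, with 1 probe set for 27 genes and 2 for 4 genes. Pcsk2, the prohormone convertase 2, was not analysed here.

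RNA was measured on 24 Affymetrix arrays from primary cortical neurons of mouse embryos at day 18, which were grown for 1 week before treatment. The 4 treatments were 50 ng per ml BDNF with 1 µM IBET858, BDNF alone, IBET858 alone and DMSO, each for 2 h and for 12 h. Each of the 8 groups had 3 arrays. BDNF, the brain-derived neurotrophic factor, acts on neurons through the receptor TrkB, and IBET858 blocks the BET proteins, which read acetylated histones. The labels give the replicates numbers and no separate cultures, so the p-values below measure only the spread between these samples, which may be technical. Cortical cultures of this kind hold several cell types, and the labels give no sort or gate.

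Values are on the log2 scale and were centred on each probe set's median, so a difference of 1 between arrays is a 2-fold difference. They hold no level, and so neither the order of abundance among these genes nor the presence of neuron markers could be read. A change is the difference between 2 group means, each over n = 3 arrays, and the value after its ± sign is limma's standard error. A gene "rose" or "fell" where limma gave a two-sided adjusted p under 0.05, with Benjamini-Hochberg adjustment over all 18194 genes.

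Neuropeptides are cut from larger precursor proteins inside dense-core vesicles, the secretory granules of neurons and endocrine cells, and are released by sustained activity. Granins pack the vesicle core, convertases and amidating enzymes trim the precursors, and priming factors ready the vesicle for fusion. In the cortex many of the peptides mark types of inhibitory interneuron, while Vgf, Scg2, Adcyap1 and others are also made by excitatory neurons, and several of these genes are classic targets of activity and of neurotrophins through the factor CREB.

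The motif of CREB, the cAMP response element, was looked for in RefSeq windows of 300 bases, from 250 before to 50 after each gene's start site, on the build GRCm38.p6. Such windows were at hand for 25 of the 31 genes. Cpe, Pnoc, Penk, Crh, Vgf and Grp had no entry in that table. The full element TGACGTCA reads the same on both strands and lay in the window of 5 of the 25 genes (20%), beside 2.03% of 27025 genes with a window and 1.79% of all 32851 windows. The 5 stretches of 40 bases around it are shown since they are the members with the complete motif, and they were chosen after the search; capitals mark the element, and each is written on the strand of its gene.
Cartpt (chr13:99900772-99900811, minus strand): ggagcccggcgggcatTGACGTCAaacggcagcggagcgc
Chgb (chr2:132781554-132781593, plus strand): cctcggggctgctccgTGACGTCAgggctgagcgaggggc
Pcsk1 (chr13:75089763-75089802, plus strand): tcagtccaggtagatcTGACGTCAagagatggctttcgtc
Scg2 (chr1:79440071-79440110, minus strand): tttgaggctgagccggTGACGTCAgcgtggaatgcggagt
Sst (chr16:23890869-23890908, minus strand): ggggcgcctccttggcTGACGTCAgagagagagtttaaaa
The element began 112 bases before the RefSeq start site of Cartpt, 72 before that of Chgb, 78 before that of Pcsk1, 68 before that of Scg2 and 48 before that of Sst. A match is a description of these letters and shows no binding.

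The shorter motif TGACG, counted on either strand (as CGTCA on the other) and also where it lies inside the full element, was found in the windows of 17 of the 25 genes (68%), beside 23% of all genes with a window. Of the precursors with the largest changes, 3 are shown with their whole windows, with the short motif in capitals. Gal, whose largest change was above that of Vip (1.75 against 1.69), is not shown. Its short motif began 19 bases after the start site. The Adcyap1 window is that of the second of its 2 RefSeq start sites; the same short motif lies 242 bases before this start and 91 bases before the other.
Adcyap1 (chr17:93198918-93199217, plus strand): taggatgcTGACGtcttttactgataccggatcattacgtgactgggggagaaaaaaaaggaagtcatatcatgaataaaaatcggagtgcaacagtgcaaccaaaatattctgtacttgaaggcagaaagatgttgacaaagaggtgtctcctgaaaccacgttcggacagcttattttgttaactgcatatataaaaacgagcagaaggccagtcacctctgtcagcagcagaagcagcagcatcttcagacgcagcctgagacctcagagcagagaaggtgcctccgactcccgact
Nts (chr10:102490369-102490668, minus strand): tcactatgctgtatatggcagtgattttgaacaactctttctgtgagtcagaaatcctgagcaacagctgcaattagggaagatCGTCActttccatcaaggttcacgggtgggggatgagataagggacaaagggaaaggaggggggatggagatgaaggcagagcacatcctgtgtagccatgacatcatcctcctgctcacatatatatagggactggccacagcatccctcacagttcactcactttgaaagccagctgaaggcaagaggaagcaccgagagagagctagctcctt
Vip (chr10:5638968-5639267, plus strand): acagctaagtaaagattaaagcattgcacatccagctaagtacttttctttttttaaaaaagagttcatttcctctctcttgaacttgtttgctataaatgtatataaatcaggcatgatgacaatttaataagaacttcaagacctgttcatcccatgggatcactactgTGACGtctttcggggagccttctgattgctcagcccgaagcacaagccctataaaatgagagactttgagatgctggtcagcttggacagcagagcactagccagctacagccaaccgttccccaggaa
In Nts the short motif began 166 bases and in Vip 79 bases before the start site. Cadps2, which also changed by a large amount, had neither motif in its window.

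**Figure D1:**
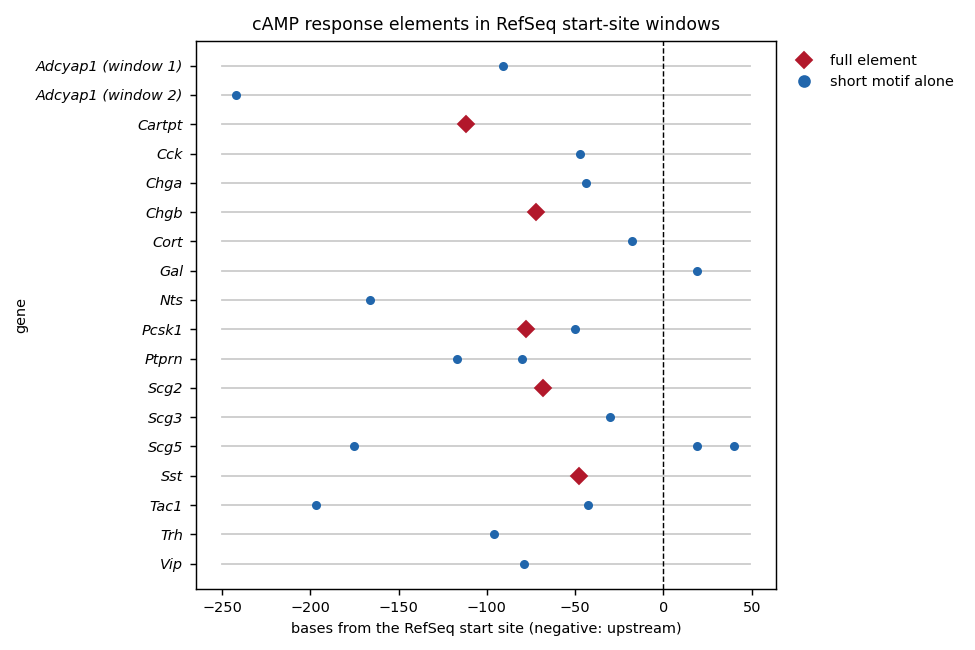
Position of the full element (diamonds) and of short motifs outside it (circles) in the RefSeq windows that hold at least 1, with bases from the start site along the axis (negative is upstream). The 5 full elements lie between 112 and 48 bases before the start, and short motifs alone are spread over the window.

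Over all genes, the standard deviation of an array from its group mean was 0.072 to 0.117 for 22 of the 24 arrays, against 0.157 for IBET858 at 12 h replicate 3 and 0.178 for DMSO at 2 h replicate 1. On that DMSO array the median of the 31 genes lay 0.26 below its group mates, against -0.0813 to 0.169 for the other 23 arrays. The astrocyte and progenitor markers had a median of 0.44 on that array and 0.30 on DMSO at 12 h replicate 1, against -0.24 to 0.0837 on the other 22 arrays; their part in the results was not tested. The 2 h changes of these genes against DMSO are therefore given with all 3 DMSO arrays and without replicate 1. That array also enters the error shared by all groups, as for Adcyap1, whose standard error was 0.32, so leaving it out can alter a call in comparisons that do not use DMSO at 2 h. Of 155 calls among the 31 genes in the 12 comparisons, 146 were kept without it and 9 were lost, and 32 were gained.

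Among the peptide precursors, BDNF raised a broad set within 2 h, led by Vgf, Adcyap1, Nts, Pnoc and Penk, and at 12 h it raised Pnoc, Nts, Vgf, Adcyap1 and Crh the most. IBET858 split the precursors. Adcyap1, Crh, Vip, Cartpt and Grp were lower at 12 h with it, alone or on top of BDNF, while Vgf, Gal and Tac1 were higher with IBET858 alone. In bulk RNA, fewer cells of a type and less RNA per cell cannot be told apart.

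Vgf codes for a granin-like precursor of several peptides and is a long-known target of neurotrophins. At 2 h it stood at 0.77, 0.90 and 0.81 in BDNF+IBET858, at 0.50, 0.44 and 0.48 in BDNF, at -0.44, -0.47 and -0.59 in IBET858, and at -2.81, -1.27 and -1.19 in DMSO. By 12 h the values were 0.90, 0.93 and 0.94 in BDNF+IBET858, 0.60, 0.62 and 0.55 in BDNF, -0.60, -0.55 and -0.53 in IBET858, and -2.30, -1.56 and -1.69 in DMSO. The 4 treatments were in the same order at both times and no group overlapped another. Vgf rose with BDNF by 2.23 ± 0.26 at 2 h (4.68-fold, adjusted p = 7.86e-07) and by 2.44 ± 0.26 at 12 h (5.43-fold, adjusted p = 1.09e-07). With IBET858 alone it rose by 1.25 ± 0.26 at 2 h and by 1.29 ± 0.26 at 12 h. Adding IBET858 to BDNF moved it by 0.35 ± 0.26 at 2 h and 0.34 ± 0.26 at 12 h, neither past the threshold (adjusted p = 0.346 and 0.323). Both of these differences, unchanged in size, were called without DMSO at 2 h replicate 1 (adjusted p = 0.0236 and 0.0172). Without DMSO at 2 h replicate 1, the 2 h rises were 1.70 with BDNF and 0.73 with IBET858, both still called.

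Nts is the precursor of neurotensin and neuromedin N. Its 2 h values were 0.26, 0.35 and 0.39 in BDNF+IBET858, 0.35, 0.46 and 0.33 in BDNF, -0.83, -1.03 and -0.82 in IBET858, and -2.32, -0.90 and -0.95 in DMSO. By 12 h they were 2.12, 2.26 and 2.40 in BDNF+IBET858, 1.64, 1.54 and 1.42 in BDNF, -0.57, -0.51 and -0.26 in IBET858, and -1.50, -0.66 and -0.80 in DMSO. Both groups with BDNF lay above both groups without it, and at 12 h the combination lay above BDNF alone on every array. The rise with BDNF was 1.77 ± 0.25 at 2 h (1.31 without DMSO replicate 1) and 2.52 ± 0.25 at 12 h. At 12 h the combination exceeded BDNF by 0.73 ± 0.25 (adjusted p = 0.0193), a call that was lost without BDNF replicate 3 (0.67) or BDNF+IBET858 replicate 3 (0.66). IBET858 alone moved Nts by 0.54 ± 0.25 at 12 h, short of the threshold (adjusted p = 0.0793), and the same difference was called without DMSO at 2 h replicate 1 (adjusted p = 0.0035). Without DMSO at 12 h replicate 1, an array of this comparison, it was 0.28 and not called (limma adjusted p = 0.3845).

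Adcyap1 codes for PACAP, a peptide that raises cAMP in its target cells. At 2 h it stood at 0.03, -0.03 and 0.06 in BDNF+IBET858, at 1.68, 1.73 and 1.63 in BDNF, at -0.08, -0.47 and -0.06 in IBET858, and at -1.68, 0.29 and 0.45 in DMSO. At 12 h it stood at -0.49, -0.60 and -0.46 in BDNF+IBET858, at 2.25, 2.20 and 2.13 in BDNF, at -1.20, -1.19 and -1.13 in IBET858, and at -0.21, 0.46 and 0.19 in DMSO. Only the arrays with BDNF alone were above all DMSO arrays, and at 12 h both groups with IBET858 were below them all. BDNF raised Adcyap1 by 1.99 ± 0.32 at 2 h and by 2.05 ± 0.32 at 12 h. Adding IBET858 to BDNF lowered it by 1.66 ± 0.32 on the log2 scale at 2 h (3.16-fold) and by 2.71 ± 0.32 at 12 h (6.55-fold), and IBET858 alone lowered it by 1.32 ± 0.32 at 12 h. The 2 probe sets of Adcyap1 moved the same way in each of these comparisons. At 2 h the effect of IBET858 alone hung on 1 array: it was 0.11 ± 0.32 with all arrays (adjusted p = 0.869) and -0.57 without DMSO replicate 1 (adjusted p = 0.00468), and the 2 h rise with BDNF was then 1.31.

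Pnoc, the precursor of nociceptin, had the largest BDNF change at 12 h among the 31 genes. At 2 h its values were 0.24, 0.21 and 0.42 in BDNF+IBET858, 0.67, 0.62 and 0.70 in BDNF, -0.45, -0.39 and -0.30 in IBET858, and -1.08, -0.28 and -0.28 in DMSO. At 12 h they were 1.90, 1.95 and 1.98 in BDNF+IBET858, 2.31, 2.43 and 2.46 in BDNF, -0.84, -0.78 and -0.69 in IBET858, and -0.24, -0.24 and -0.21 in DMSO. The 4 groups did not overlap at 12 h, while IBET858 and DMSO overlapped at 2 h. Pnoc rose with BDNF by 1.21 ± 0.13 at 2 h (0.94 without DMSO replicate 1) and by 2.63 ± 0.13 at 12 h (6.18-fold). IBET858 lowered it by 0.54 ± 0.13 alone and by 0.46 ± 0.13 on top of BDNF at 12 h. The 2 h fall of 0.37 ± 0.13 with the combination against BDNF (adjusted p = 0.0391) was lost when any 1 of 5 of its 6 arrays was left out, with values of -0.40 to -0.33.

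Penk is the precursor of the enkephalins. Its 2 h values were 0.56, 0.44 and 0.70 in BDNF+IBET858, 0.39, 0.39 and 0.33 in BDNF, -0.26, -0.35 and -0.31 in IBET858, and -0.91, -0.49 and -0.53 in DMSO. At 12 h Penk stood at 0.37, 0.26 and 0.29 in BDNF+IBET858, at 1.40, 1.28 and 1.22 in BDNF, at -0.47, -0.49 and -0.45 in IBET858, and at -0.57, -0.43 and -0.48 in DMSO. IBET858 and DMSO overlapped at 12 h, whereas the combination lay between them and BDNF alone. Penk rose with BDNF by 1.01 ± 0.0846 at 2 h (0.88 without DMSO replicate 1) and by 1.79 ± 0.0846 at 12 h. IBET858 on top of BDNF lowered it by 0.99 ± 0.0846 at 12 h, and the 2 h difference of 0.20 was not called with all arrays (adjusted p = 0.0897) but was without DMSO replicate 1 (adjusted p = 0.0182). The 2 h rise with IBET858 alone, 0.34 ± 0.0846, was not called without DMSO replicate 1 (0.21, adjusted p = 0.0524).

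Crh codes for the corticotropin-releasing hormone, which cortical interneurons also make. At 2 h its values were 0.22, 0.11 and 0.20 in BDNF+IBET858, 0.36, 0.51 and 0.41 in BDNF, 0.27, 0.02 and -0.07 in IBET858, and -0.73, -0.02 and 0.28 in DMSO. At 12 h they were -1.40, -1.66 and -1.59 in BDNF+IBET858, 0.78, 0.80 and 0.83 in BDNF, -2.15, -2.16 and -2.15 in IBET858, and -1.25, -0.97 and -1.10 in DMSO. At 12 h the arrays of each group were apart from all others, with BDNF alone on top and IBET858 alone lowest. Crh rose with BDNF by 0.58 ± 0.15 at 2 h (0.30 without DMSO replicate 1) and by 1.91 ± 0.15 at 12 h. IBET858 lowered it at 12 h by 1.04 ± 0.15 alone and by 2.35 ± 0.15 on top of BDNF (5.11-fold).

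Vip, the vasoactive intestinal peptide of a class of cortical interneuron, stood at 2 h at 0.06, 0.08 and 0.10 in BDNF+IBET858, at 0.26, 0.30 and 0.26 in BDNF, at 0.05, -0.06 and 0.00 in IBET858, and at -0.52, 0.04 and 0.00 in DMSO. At 12 h it stood at -0.97, -1.11 and -1.09 in BDNF+IBET858, at 0.57, 0.70 and 0.62 in BDNF, at -1.42, -1.55 and -1.76 in IBET858, and at -0.19, -0.15 and -0.09 in DMSO. At 2 h IBET858 alone overlapped DMSO, and by 12 h both groups with IBET858 lay below it. Vip fell at 12 h by 1.44 ± 0.10 with IBET858 alone (2.7-fold) and by 1.69 ± 0.10 with the combination against BDNF. With BDNF it rose by 0.43 ± 0.10 at 2 h (0.25 without DMSO replicate 1) and by 0.77 ± 0.10 at 12 h.

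Gal, the precursor of galanin, rose under both agents. Its 2 h values were 0.90, 0.85 and 1.04 in BDNF+IBET858, -0.06, -0.02 and -0.07 in BDNF, -0.20, -0.01 and 0.01 in IBET858, and -1.01, -0.44 and -0.41 in DMSO. At 12 h they were 1.68, 1.70 and 1.82 in BDNF+IBET858, 1.09, 0.98 and 1.02 in BDNF, 0.05, -0.17 and 0.04 in IBET858, and -1.27, -0.34 and -0.54 in DMSO. The combination was above all other groups at both times. Gal was higher in the combination than in BDNF alone by 0.98 ± 0.17 at 2 h and by 0.70 ± 0.17 at 12 h. At 12 h it rose by 1.75 ± 0.17 with BDNF and by 0.69 ± 0.17 with IBET858, and the second value was 0.42 without DMSO at 12 h replicate 1 (adjusted p = 0.0117). In the 2 h comparisons the rises of 0.57 ± 0.17 with BDNF and 0.56 ± 0.17 with IBET858 were not called without DMSO replicate 1 (0.38 with adjusted p = 0.101 and 0.36 with adjusted p = 0.169). The call for IBET858 at 2 h was also lost without IBET858 replicate 2 (0.53) or 3 (0.52).

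Tac1 is the precursor of substance P and neurokinin A. At 2 h it stood at 0.41, 0.30 and 0.43 in BDNF+IBET858, at -0.10, -0.07 and -0.03 in BDNF, at -0.27, -0.15 and -0.19 in IBET858, and at -0.40, -0.58 and -0.67 in DMSO. At 12 h the values were 0.65, 0.66 and 0.66 in BDNF+IBET858, 0.96, 0.86 and 0.78 in BDNF, 0.13, 0.09 and 0.10 in IBET858, and -0.47, -0.59 and -0.68 in DMSO. No 2 of the groups overlapped at either time, and the combination was above BDNF at 2 h and below it at 12 h. Tac1 rose with BDNF by 0.48 ± 0.0667 at 2 h and by 1.45 ± 0.0667 at 12 h, and with IBET858 by 0.34 ± 0.0667 and 0.69 ± 0.0667 at those times. Without DMSO at 2 h replicate 1, the 2 h values were 0.55 with BDNF and 0.42 with IBET858. The combination against BDNF was higher by 0.45 ± 0.0667 at 2 h and lower at 12 h (-0.21 ± 0.0667, adjusted p = 0.0125), and the 12 h call was lost without BDNF replicate 1 (-0.16). The 2 probe sets of Tac1 disagreed in size: at 12 h, BDNF moved 1 of them by 2.72 and the other by 0.18 (adjusted p = 0.12).

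Grp codes for the gastrin-releasing peptide. At 2 h its values were 0.17, 0.05 and -0.03 in BDNF+IBET858, 0.20, 0.05 and 0.15 in BDNF, 0.03, 0.18 and 0.07 in IBET858, and 2.01, 0.52 and 0.22 in DMSO. At 12 h Grp stood at -1.40, -1.54 and -1.64 in BDNF+IBET858, at -0.75, -0.36 and -0.05 in BDNF, at -1.59, -1.77 and -1.63 in IBET858, and at 0.22, -0.16 and -0.17 in DMSO. At 12 h both groups with IBET858 lay below all arrays without it, while BDNF alone overlapped DMSO. Grp fell at 12 h by 1.63 ± 0.27 with IBET858 (3.09-fold) and by 1.14 ± 0.27 with the combination against BDNF. Its 2 h falls, 0.78 ± 0.27 with BDNF and 0.83 ± 0.27 with IBET858, were not called without DMSO replicate 1 (-0.24 with adjusted p = 0.297 and -0.28 with adjusted p = 0.261), and the 3 treated arrays of either comparison, left out in turn, each ended the call too (-0.82 to -0.74 with BDNF and -0.87 to -0.80 with IBET858).

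Npy and Sst, neuropeptide Y and somatostatin, mark large classes of cortical interneuron and had smaller changes. Npy at 2 h was 0.16, 0.12 and 0.32 in BDNF+IBET858, 0.01, 0.02 and -0.01 in BDNF, -0.06, -0.08 and -0.02 in IBET858, and -0.96, -0.23 and -0.11 in DMSO. Npy at 12 h was 0.24, 0.22 and 0.19 in BDNF+IBET858, 0.42, 0.39 and 0.25 in BDNF, -0.33, -0.14 and 0.19 in IBET858, and -0.56, -0.07 and -0.26 in DMSO. BDNF arrays of Npy were above DMSO arrays at both times. The Npy change with BDNF was 0.44 ± 0.16 at 2 h, no longer called without DMSO replicate 1 (0.18, adjusted p = 0.353) or without any BDNF array (0.43 to 0.45), and 0.65 ± 0.16 at 12 h (adjusted p = 0.00209). Sst at 2 h was 0.16, 0.09 and 0.23 in BDNF+IBET858, 0.02, 0.09 and 0.05 in BDNF, -0.11, -0.12 and -0.05 in IBET858, and -0.90, -0.14 and -0.13 in DMSO. At 12 h its 12 arrays lay between -0.16 and 0.17, with the combination above BDNF alone and above DMSO on every array and IBET858 alone overlapping the combination. The Sst rise with BDNF at 2 h, 0.44 ± 0.13, was 0.19 without DMSO replicate 1 and not called (adjusted p = 0.0585), and at 12 h none of its 4 comparisons between treatments was called with all arrays. Without that 2 h array, the combination exceeded BDNF at 12 h by 0.21 (adjusted p = 0.00713).

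**Figure D2:**
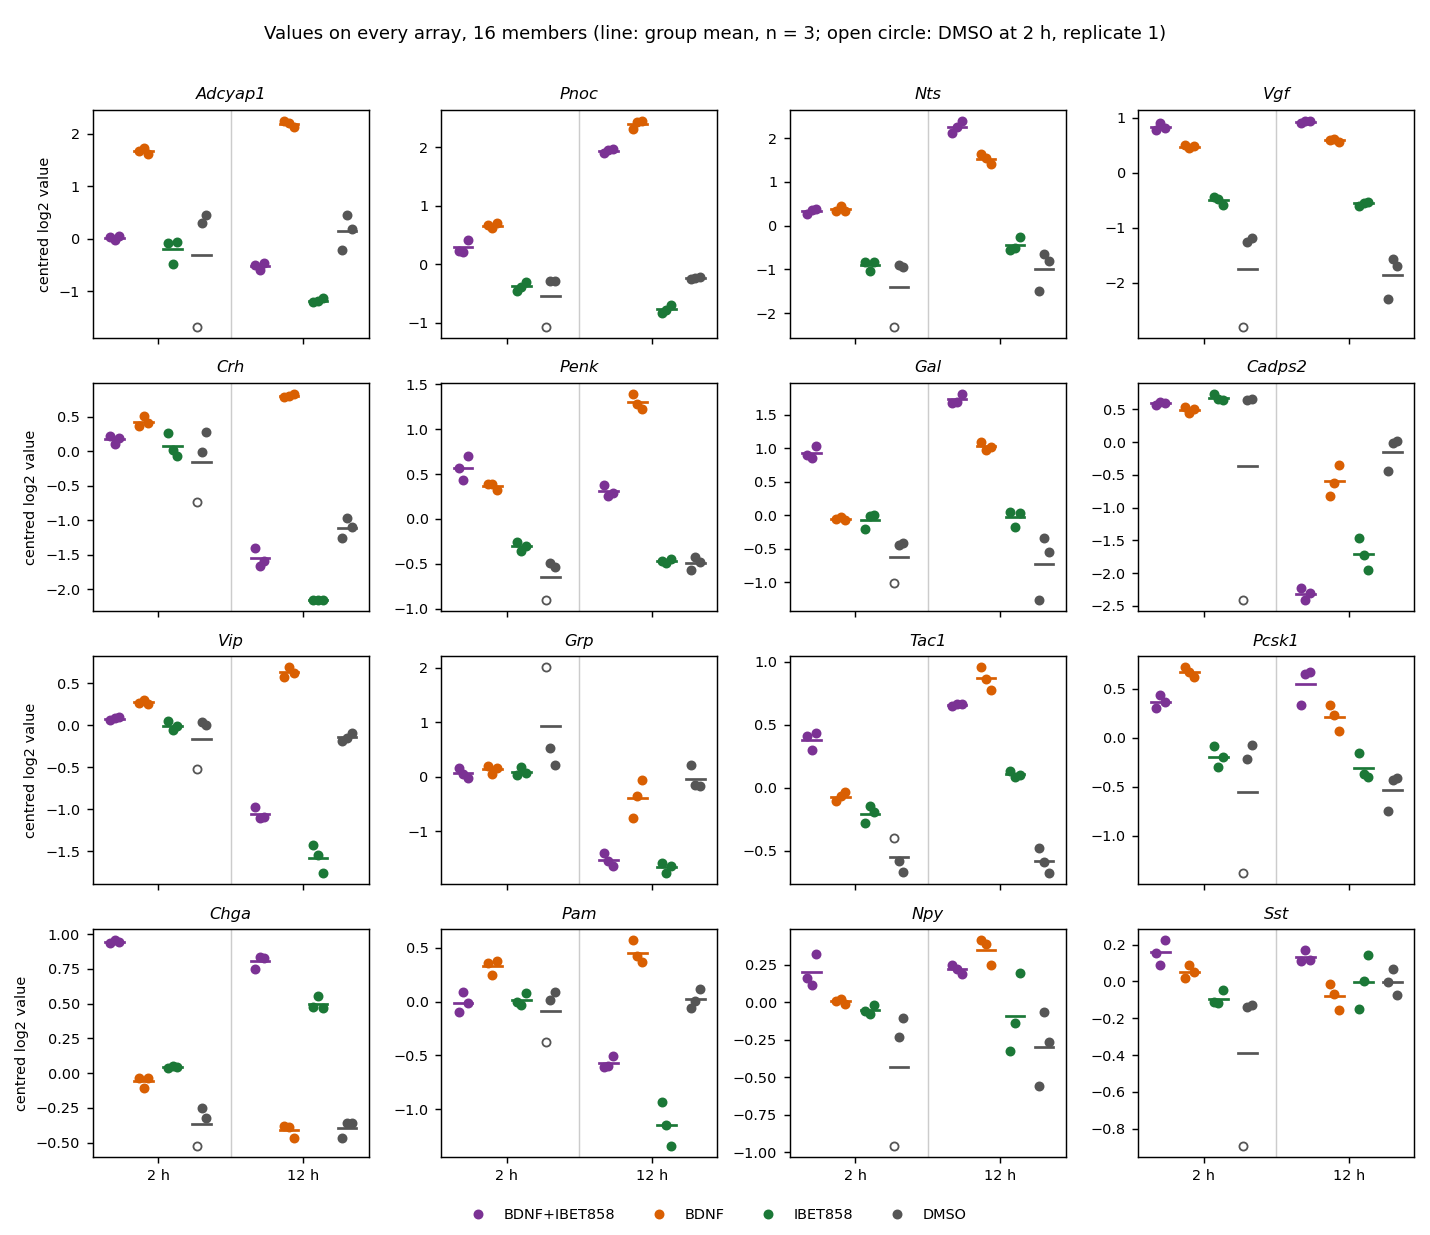
Centred log2 value (vertical axis) of 16 genes on each array at 2 h and 12 h, with BDNF+IBET858, BDNF, IBET858 and DMSO from left to right at each time; points are arrays, lines are means of 3, and the open circle is DMSO at 2 h replicate 1. That array is lowest for Adcyap1 (-1.68) and Vgf (-2.81) and highest for Grp (2.01), and at 12 h Crh and Adcyap1 are highest with BDNF alone.

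Of the remaining precursors, Cartpt, the CART peptide, and Cck, cholecystokinin, had the clearest responses. Cartpt at 12 h stood at -0.89, -0.90 and -1.01 in BDNF+IBET858, at 0.19, 0.10 and 0.01 in BDNF, at -0.74, -0.79 and -0.88 in IBET858, and at 0.07, -0.10 and -0.21 in DMSO. Arrays with IBET858 were all below arrays without it. Cartpt fell at 12 h by 0.73 ± 0.19 with IBET858 and by 1.03 ± 0.19 with the combination against BDNF, and at 2 h it rose with BDNF by 0.83 ± 0.19 (0.45 without DMSO replicate 1). Cck changed only at 12 h among these comparisons, when it rose by 0.56 ± 0.0841 with BDNF, fell by 0.33 ± 0.0841 with IBET858 and fell by 0.60 ± 0.0841 with the combination against BDNF. Tac2, the precursor of neurokinin B, fell with BDNF at 12 h by 0.37 ± 0.0692. Pdyn, the precursor of the dynorphins, rose with BDNF at 12 h by 0.33 ± 0.12 and fell by 0.32 ± 0.12 with the combination against BDNF; each of these calls was lost on leaving out any 1 of 4 arrays (values of 0.24 to 0.35 and of -0.32 to -0.24). Trh, the thyrotropin-releasing hormone, rose with BDNF at 12 h by 0.34 ± 0.0909. Cort, the precursor of cortistatin, rose with BDNF at 2 h by 0.33 ± 0.11, a call lost without DMSO replicate 2 (0.28) or BDNF replicate 2 (0.27) and kept without DMSO replicate 1 (0.36).

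The granins did not move as 1 group. Chga was higher with IBET858, alone or on top of BDNF, at both times, and it also rose with BDNF at 2 h. Scg2 rose with BDNF at both times and was lower at 12 h when IBET858 was added. Chgb, Scg3, Scg5 and Pcsk1n were lower with BDNF at 12 h. Chga codes for chromogranin A, a core protein of the vesicle. At 2 h its values were 0.93, 0.96 and 0.95 in BDNF+IBET858, -0.03, -0.10 and -0.04 in BDNF, 0.03, 0.05 and 0.05 in IBET858, and -0.53, -0.25 and -0.33 in DMSO. At 12 h they were 0.75, 0.83 and 0.83 in BDNF+IBET858, -0.38, -0.39 and -0.47 in BDNF, 0.47, 0.56 and 0.47 in IBET858, and -0.47, -0.36 and -0.36 in DMSO. The combination was highest at both times, and at 12 h BDNF alone overlapped DMSO. Chga was higher in the combination than in BDNF alone by 1.00 ± 0.0585 at 2 h (2.01-fold) and by 1.22 ± 0.0585 at 12 h (2.32-fold). IBET858 alone raised it by 0.41 ± 0.0585 at 2 h (0.33 without DMSO replicate 1) and by 0.89 ± 0.0585 at 12 h. BDNF alone raised Chga by 0.31 ± 0.0585 at 2 h (0.23 without DMSO replicate 1), and its 12 h change was -0.02 (adjusted p = 0.866).

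Scg2, secretogranin II, is the precursor of secretoneurin. At 12 h it stood at 0.15, 0.21 and 0.20 in BDNF+IBET858, at 0.70, 0.69 and 0.70 in BDNF, at -0.11, -0.18 and -0.21 in IBET858, and at -0.21, -0.01 and -0.01 in DMSO. BDNF alone was highest, the combination was between it and DMSO, and IBET858 alone overlapped DMSO. Scg2 rose with BDNF by 0.77 ± 0.15 at 12 h and by 0.70 ± 0.15 at 2 h (0.39 without DMSO replicate 1), and fell by 0.51 ± 0.15 with the combination against BDNF at 12 h. Chgb, chromogranin B, changed direction with time under BDNF: it rose by 0.23 ± 0.0583 at 2 h (0.16 without DMSO replicate 1) and fell by 0.45 ± 0.0583 at 12 h. At 12 h its arrays lay between -0.47 and -0.26 in the 3 treated groups and between -0.06 and 0.09 in DMSO, and it fell with IBET858 alone by 0.36 ± 0.0583. Pcsk1n, or proSAAS, an inhibitor of the convertase PC1/3, fell with BDNF at 12 h by 0.43 ± 0.047. Scg5, the chaperone 7B2 of the convertase PC2, fell with BDNF at 12 h by 0.40 ± 0.0572. Scg3, which ties granins to the vesicle membrane, fell with BDNF at 12 h by 0.32 ± 0.0623, and it was 0.39 ± 0.0623 higher in the combination than in BDNF alone.

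Of the processing enzymes, Pcsk1 rose with BDNF, Pam fell with IBET858 at 12 h and Cpe did not pass the test in any comparison. Pcsk1 codes for the convertase PC1/3, which cuts precursors at pairs of basic residues. At 2 h it stood at 0.31, 0.44 and 0.36 in BDNF+IBET858, at 0.73, 0.67 and 0.63 in BDNF, at -0.08, -0.30 and -0.20 in IBET858, and at -1.38, -0.21 and -0.07 in DMSO. By 12 h it stood at 0.33, 0.65 and 0.67 in BDNF+IBET858, at 0.33, 0.23 and 0.07 in BDNF, at -0.16, -0.37 and -0.40 in IBET858, and at -0.75, -0.43 and -0.41 in DMSO. Both groups with BDNF were above both without it at each time. Pcsk1 rose with BDNF by 1.23 ± 0.21 at 2 h (0.82 without DMSO replicate 1) and by 0.74 ± 0.21 at 12 h. IBET858 on top of BDNF gave -0.30 ± 0.21 at 2 h and 0.34 ± 0.21 at 12 h, neither called (adjusted p = 0.307 and 0.206). Without DMSO at 2 h replicate 1 both were called, lower at 2 h and higher at 12 h (adjusted p = 0.0266 and 0.00761).

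Pam codes for the enzyme that amidates the end of many peptides, a step on which their activity depends. Its 2 h values were -0.10, 0.09 and -0.01 in BDNF+IBET858, 0.36, 0.25 and 0.38 in BDNF, 0.00, -0.03 and 0.08 in IBET858, and -0.38, 0.01 and 0.09 in DMSO. At 12 h they were -0.61, -0.60 and -0.51 in BDNF+IBET858, 0.58, 0.42 and 0.37 in BDNF, -0.93, -1.15 and -1.35 in IBET858, and -0.06, 0.00 and 0.12 in DMSO. The 4 groups were apart at 12 h, with BDNF alone highest and IBET858 alone lowest. Pam fell at 12 h by 1.17 ± 0.10 with IBET858 (2.24-fold) and by 1.03 ± 0.10 with the combination against BDNF. With BDNF it rose by 0.42 ± 0.10 at 2 h (0.28 without DMSO replicate 1) and by 0.43 ± 0.10 at 12 h. The 2 h fall of 0.34 ± 0.10 with the combination against BDNF was not called without BDNF replicate 1 or 3 or BDNF+IBET858 replicate 1 (-0.32 to -0.29). Cpe, the carboxypeptidase that trims basic residues, lay between -0.16 and 0.16 on all 24 arrays, and its 12 changes lay between -0.15 and 0.13.

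Among the vesicle proteins, Cadps2 fell with IBET858 at 12 h and Ptprn rose with BDNF at 12 h. Cadps2 codes for a priming factor of dense-core vesicles that is known for its part in the release of neurotrophins. At 2 h it stood at 0.57, 0.62 and 0.60 in BDNF+IBET858, at 0.54, 0.44 and 0.51 in BDNF, at 0.74, 0.66 and 0.64 in IBET858, and at -2.41, 0.64 and 0.66 in DMSO. By 12 h it stood at -2.22, -2.42 and -2.31 in BDNF+IBET858, at -0.82, -0.62 and -0.36 in BDNF, at -1.46, -1.73 and -1.96 in IBET858, and at -0.44, -0.01 and 0.01 in DMSO. At 2 h 1 DMSO array lay far below the 11 other arrays, and at 12 h both groups with IBET858 were below all arrays without it. Cadps2 fell at 12 h by 1.57 ± 0.47 with IBET858 (2.97-fold) and by 1.72 ± 0.47 with the combination against BDNF (3.29-fold). Its 2 h differences from DMSO, 1.05 ± 0.47 with IBET858 and 0.87 ± 0.47 with BDNF, were not called and became 0.03 and -0.15 without DMSO replicate 1. Cadps, the related priming factor CAPS1, fell with IBET858 at 12 h by 0.27 ± 0.0789 and was not called without IBET858 replicate 3 (-0.19, adjusted p = 0.0594).

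Ptprn and Ptprn2 code for IA-2 and IA-2beta, phosphatase-like proteins of the vesicle membrane. Ptprn at 2 h was -0.06, -0.01 and 0.17 in BDNF+IBET858, 0.18, -0.04 and 0.01 in BDNF, -0.18, -0.20 and -0.17 in IBET858, and -0.22, -0.23 and -0.20 in DMSO. Ptprn at 12 h was 1.09, 1.03 and 0.95 in BDNF+IBET858, 0.89, 0.90 and 0.97 in BDNF, -0.13, -0.01 and 0.20 in IBET858, and 0.09, 0.24 and -0.15 in DMSO. At 12 h the arrays with BDNF were above all arrays without it, and IBET858 made no difference that passed the test, alone (-0.04 ± 0.089) or with BDNF (0.10 ± 0.089). Ptprn rose with BDNF by 0.86 ± 0.089 at 12 h. Its 2 h rise of 0.26 ± 0.089 was not called without any 1 of the 3 DMSO arrays (0.26 to 0.27) or BDNF replicate 1 (0.20). Ptprn2 fell with BDNF at 12 h by 0.29 ± 0.071, with -0.57 in 1 of its 2 probe sets and -0.01 in the other.

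**Figure D3:**
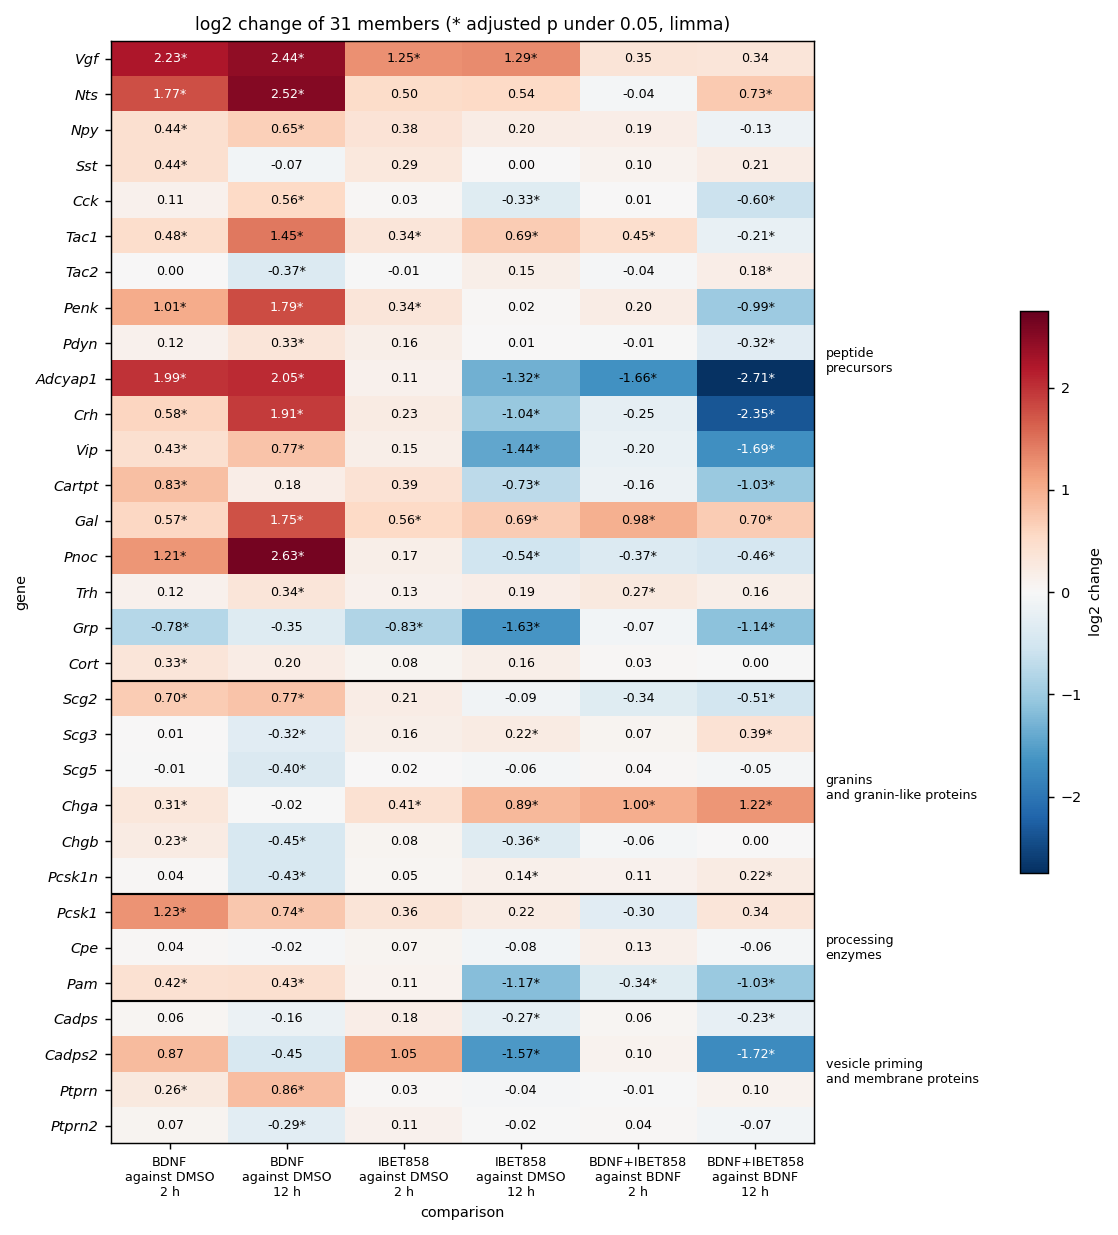
Change on the log2 scale of the 31 genes (rows, by role) for BDNF against DMSO, IBET858 against DMSO and BDNF+IBET858 against BDNF at 2 h and 12 h (columns), red for higher and blue for lower, with a star where the adjusted p was under 0.05. Adcyap1 and Crh are red with BDNF at 12 h (2.05 and 1.91) and blue when IBET858 is added (-2.71 and -2.35), and Chga is red in both columns of the combination (1.00 and 1.22).

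BDNF against DMSO asks what the neurotrophin does without the BET inhibitor. At 2 h, 19 of the 31 genes were called higher and 1 lower, where 9.79% of all genes were called higher and 18.1% lower, and the median change was 0.42 against 0.00 over all genes. The genes were chosen with earlier results of these data known, so the gap between such shares is no independent test of the set. By role, 13 of 18 precursors, 3 of 6 granins, 2 of 3 enzymes and 1 of 4 vesicle proteins were higher, and the gene called lower was Grp. Without DMSO replicate 1, 15 genes were called higher and 0 lower, beside 8.13% and 16.3% of all genes, with a median of 0.23. At an unadjusted p under 0.05, limma then put 18 of them higher and 0 lower; the calls of Npy, Sst, Gal, Grp and Ptprn were lost. At 12 h, 17 genes were higher and 6 lower, where 16.9% and 24.2% of all genes were, with medians of 0.34 and -0.01. The 12 h count was 13 higher and 1 lower for the precursors, against 1 higher and 4 lower for the granins.

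**Figure D4:**
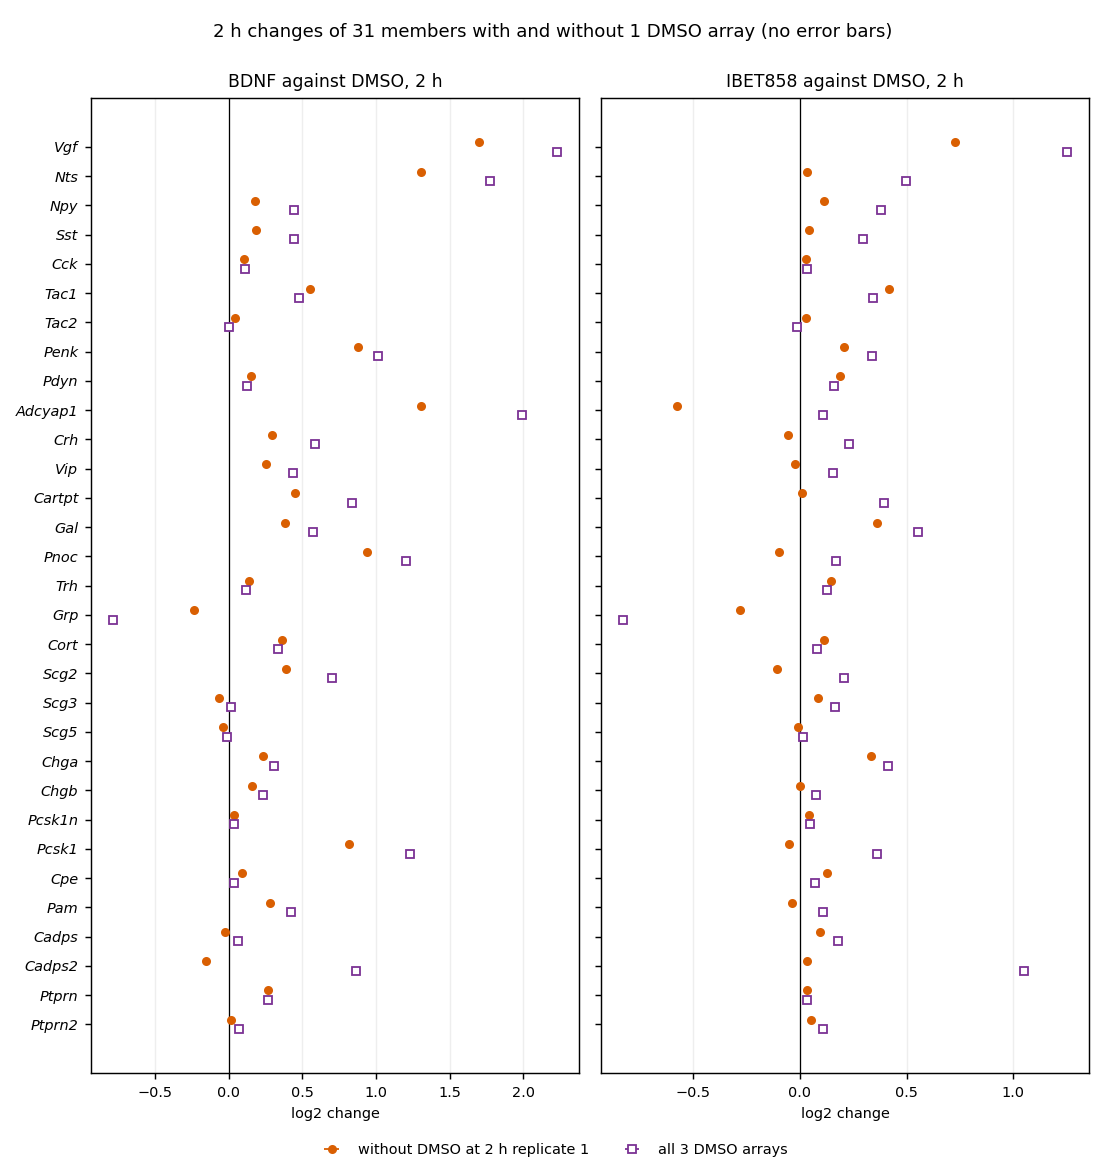
Change at 2 h (horizontal axis, log2) of the 31 genes for BDNF against DMSO and IBET858 against DMSO without DMSO replicate 1 (filled circles) and with all 3 DMSO arrays (open squares). Without that array the BDNF changes are smaller for most precursors, as for Vgf (1.70 against 2.23), and the IBET858 change of Adcyap1 is -0.57 against 0.11.

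IBET858 against DMSO asks what blocking the BET proteins does in neurons without added BDNF. At 2 h, 5 of the 31 genes were called higher (Vgf, Tac1, Penk, Gal and Chga) and 1 lower (Grp), beside 5.64% and 9.27% of all genes. Without DMSO replicate 1 the calls were 3 higher (Vgf, Tac1 and Chga) and 1 lower (Adcyap1), beside 4.96% and 8.99% of all genes. Tac1 and Chga then stood at 0.42 and 0.33. At 12 h, 6 genes were higher and 11 lower, where 22.9% and 25.8% of all genes were, with a median of -0.02 against 0.04 over all genes. The 6 higher genes were Vgf, Tac1, Gal, Chga, Scg3 (0.22 ± 0.0623) and Pcsk1n (0.14 ± 0.047), and the last of these was not called without DMSO replicate 3 (0.10) or IBET858 replicate 2 (0.12). The 11 lower genes were Adcyap1, Cadps2, Crh, Vip, Grp, Cartpt, Pnoc, Cck, Chgb, Pam and Cadps.

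BDNF+IBET858 against BDNF asks how the inhibitor alters the response to BDNF. At 2 h, 4 genes were higher (Chga, Gal, Tac1 and Trh) and 3 lower (Adcyap1, Pnoc and Pam), beside 12.2% and 14.9% of all genes. Trh stood 0.27 ± 0.0909 higher, a call lost when any 1 of 5 of its 6 arrays was left out (0.24 to 0.29). With DMSO at 2 h replicate 1 left out of the shared error, 6 genes were higher and 7 lower at 2 h. The shares of all genes in that fit were 13.8% and 16.1%. Vgf and Penk were added to the higher genes, and Crh (-0.25), Vip (-0.20), Scg2 (-0.34) and Pcsk1 to the lower ones. At 12 h, 6 were higher and 14 lower, where 21.1% and 25.6% of all genes were, with a median of -0.07 against -0.01. The 6 were Chga, Nts, Gal, Scg3, Pcsk1n (0.22 ± 0.047) and Tac2 (0.18 ± 0.0692), and Tac2 was not called without BDNF replicate 1 or 2 or BDNF+IBET858 replicate 2 or 3 (0.15 to 0.19). Of the 14, 10 were precursors: Adcyap1, Crh, Vip, Grp, Cartpt, Penk, Cck, Pnoc, Pdyn and Tac1. The others were Scg2, Pam, Cadps2 and Cadps (-0.23 ± 0.0789), and Cadps was not called without BDNF replicate 1 (-0.21) or BDNF+IBET858 replicate 1 (-0.19).

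BDNF+IBET858 against IBET858 gives the response to BDNF when the BET proteins are blocked. It shares the BDNF+IBET858 arrays with the comparison above, and the IBET858 arrays with IBET858 against DMSO. At 2 h, 8 genes were higher and 0 lower, where 6.44% and 14.7% of all genes were, and limma also put 0 of the 31 lower at an unadjusted p under 0.05. The 8 were Vgf (1.33 ± 0.26), Nts (1.23 ± 0.25), Gal (1.00 ± 0.17), Chga (0.90 ± 0.0585), Penk (0.87 ± 0.0846), Pnoc (0.66 ± 0.13), Tac1 (0.59 ± 0.0667) and Trh (0.27 ± 0.0909), and Trh was not called without IBET858 replicate 1 or 3 or any BDNF+IBET858 array (0.19 to 0.29). At 12 h, 14 were higher and 4 lower, where 16.1% and 23.2% of all genes were. The largest were Pnoc (2.71 ± 0.13), Nts (2.71 ± 0.25), Gal (1.76 ± 0.17), Vgf (1.49 ± 0.26) and Ptprn (1.00 ± 0.089). Adcyap1, at 0.22 ± 0.32 and 0.66 ± 0.32, was not called at either time with all arrays, and its 12 h value was called without DMSO at 2 h replicate 1 (adjusted p = 0.000142). The 4 lower genes were Tac2, Scg5, Pcsk1n and Ptprn2, between -0.39 and -0.34.

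**Figure D5:**
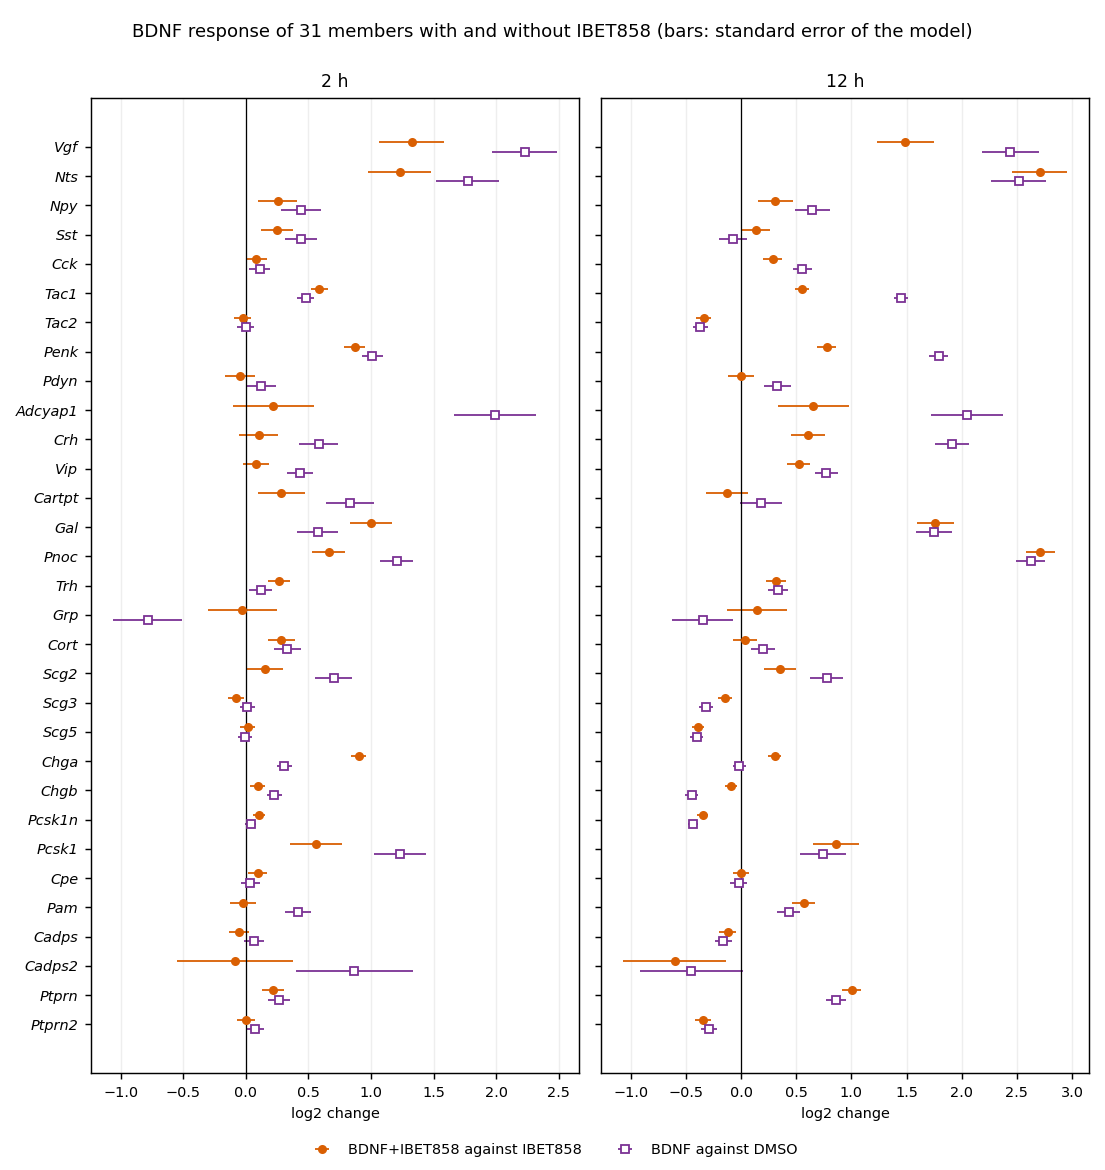
Response to BDNF on the log2 scale (horizontal axis) of the 31 genes at 2 h and 12 h, in the presence of IBET858 (BDNF+IBET858 against IBET858, filled circles) and without it (BDNF against DMSO, open squares); bars are the standard error of the model. At 12 h the response with IBET858 is 2.71 against 2.63 for Pnoc and 0.60 against 1.91 for Crh.

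The interaction tests whether the response to BDNF differs with IBET858 present; a negative value means a smaller or more negative response in its presence. At 2 h it was called positive for 1 and negative for 1 of the 31 genes, beside 3.11% and 5.29% of all genes. Adcyap1 had -1.77 ± 0.46 (adjusted p = 0.0165) and Chga 0.59 ± 0.0828 (adjusted p = 4.94e-05, or 0.67 without DMSO replicate 1). The Adcyap1 value was -1.09 without DMSO replicate 1 (adjusted p = 0.000384) and was not called when only the 2 h arrays were fitted (adjusted p = 0.0944). By 12 h it was called positive for 2 genes and negative for 4, beside 8.94% and 7.24% of all genes. Adcyap1 (-1.39 ± 0.46), Crh (-1.31 ± 0.22), Penk (-1.01 ± 0.12) and Tac1 (-0.90 ± 0.0943) responded less to BDNF with the inhibitor. The interaction was positive for Chgb (0.36 ± 0.0824) and Chga (0.32 ± 0.0828). Chgb means at 12 h were -0.44 in BDNF+IBET858, -0.44 in BDNF, -0.35 in IBET858 and 0.01 in DMSO. Its fall with BDNF was therefore smaller with the inhibitor, and its level was not higher. The 12 h call of Adcyap1 was lost when any 1 of the 12 arrays but DMSO replicate 2 was left out (adjusted p of 0.061 to 0.112), and it was kept without DMSO at 2 h replicate 1, which alters the shared error alone (adjusted p = 6.05e-06). In that fit Vgf (-0.95, adjusted p = 0.000223, against 0.0846 with all arrays) and Scg2 (-0.42, adjusted p = 0.000316) were also called at 12 h. For Nts, Gal, Pnoc and Ptprn, genes with large BDNF responses, the 12 h interaction was 0.19 ± 0.35, 0.01 ± 0.23, 0.08 ± 0.19 and 0.14 ± 0.13, none of them called, which does not show that these genes responded alike with and without the inhibitor.

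Differences between the times were tested as well. The IBET858 effect was lower at 12 h than at 2 h for 11 of the 31 genes and higher for 2, beside 17.4% and 15.8% of all genes. The falls were led by Cadps2 (-2.62 ± 0.66, or -1.60 without DMSO at 2 h replicate 1), Vip (-1.59 ± 0.15), Adcyap1 (-1.43 ± 0.46, or -0.75 without that array), Crh and Pam (both -1.27). The Adcyap1 call was lost without DMSO at 12 h replicate 2 (-1.27, adjusted p = 0.0552). The 2 higher genes were Chga (0.48 ± 0.0828) and Tac1 (0.35 ± 0.0943). Without DMSO at 2 h replicate 1 the call of Penk was lost, and Vgf was called higher (0.57, against 0.04 with all arrays) and Grp lower (-1.35, against -0.80). The BDNF effect was higher at 12 h for 7 genes and lower for 8, beside 12.9% and 11.9% of all genes. Pnoc (1.42 ± 0.19), Crh (1.33 ± 0.22), Gal (1.17 ± 0.23) and Tac1 (0.97 ± 0.0943) were higher by the most, and Chgb was lower by the most (-0.68 ± 0.0824). Without DMSO at 2 h replicate 1 the BDNF counts were 13 higher and 8 lower. Over all genes, 5026 were called in that fit, against 4518 with all arrays. Vgf, Nts, Npy, Adcyap1, Vip and Scg2 were then added to the higher genes, with values of 0.39 to 1.21.

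The 5 genes with a full element in their RefSeq window shown above, Cartpt, Chgb, Pcsk1, Scg2 and Sst, were all called higher with BDNF at 2 h with all arrays, as were 10 of the 20 genes with a window that lacks the element and 19 of all 31. Of all genes, 9.79% were called higher in that comparison. Without DMSO replicate 1 the counts with and without the element were 4 of 5 and 7 of 20, Sst being the call lost among the 5. The share of all genes called higher in that fit is given with the BDNF comparison above. The difference between the shares with and without the element was not tested. The genes were chosen with earlier results known, and calls among all genes with the element were not counted. At 12 h with BDNF, Pcsk1 and Scg2 were called higher, Chgb lower, and Cartpt and Sst were not called. Pnoc, Penk, Vgf and Crh, which rose with BDNF at both times, had no window to search.

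Other genes of the system were taken from 3 lists. Of 34 other neuropeptide and peptide hormone genes, limma called 6 higher and 0 lower with BDNF at 12 h (6 and 0 at an unadjusted p under 0.05), where 16.9% and 24.2% of all genes were, led by Nppc, the precursor of C-type natriuretic peptide (1.58 ± 0.083), and 3 higher and 3 lower in the combination against BDNF (21.1% and 25.6% of all genes), where Nppc was lower (-1.31 ± 0.083) after being higher at 2 h (1.15 ± 0.083). With IBET858 alone limma called 7 higher and 0 lower at 12 h (10 and 1 at an unadjusted p under 0.05), beside 22.9% and 25.8% of all genes, led by Spx, the precursor of spexin (0.93 ± 0.14). Of 31 peptide receptors, 12 were higher and 3 lower with BDNF at 12 h (16.9% and 24.2% of all genes), and 3 higher and 15 lower in the combination against BDNF (21.1% and 25.6%). Sstr2, a somatostatin receptor, rose with BDNF by 1.35 ± 0.092 at 2 h (1.32 without DMSO replicate 1) and by 3.03 ± 0.092 at 12 h, and was lower in the combination than in BDNF by 2.31 on the log2 scale at 12 h (-2.31 ± 0.092). Tacr3, the neurokinin B receptor, rose by 2.00 ± 0.0674 with BDNF at 12 h, when Tac2, the precursor of its ligand, was lower. Ntsr1, a neurotensin receptor, fell by 1.68 ± 0.18 with BDNF at 12 h, when Nts was higher. It also fell with IBET858 alone at 12 h (-1.19 ± 0.18), where Nts was not called with all arrays. Oprl1, the nociceptin receptor, fell by 1.36 ± 0.0825 with IBET858 at 12 h.

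Of 43 other genes for the sorting, processing and release of dense-core vesicles, 8 were higher and 23 lower with IBET858 at 12 h (22.9% and 25.8% of all genes), with a median of -0.29 against 0.04 over all genes. Ica1 (-1.13 ± 0.12) and Ica1l (-1.06 ± 0.15), which code for proteins that act in vesicle formation, and Sytl2 (-1.001 ± 0.16), a synaptotagmin-like protein, fell the most. In the combination against BDNF at 12 h, 9 were higher and 20 lower (21.1% and 25.6% of all genes), and the convertase Pcsk6 (2.14 ± 0.0783) and carboxypeptidase D, Cpd (1.22 ± 0.0667), were the most raised. Furin, a convertase of the Golgi, rose with BDNF at 2 h by 0.68 ± 0.0816 (0.69 without DMSO replicate 1) and was lower in the combination than in BDNF (-1.14 ± 0.0816).

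Several of the peptides mark interneurons, so 18 interneuron markers that are not among the 31 genes were followed. With BDNF, limma called 4 higher and 0 lower at 2 h (6 and 0 at an unadjusted p under 0.05), with a median of 0.14, beside 9.79% and 18.1% of all genes. Without DMSO replicate 1 the 2 h count was 2 higher and 2 lower, with a median of 0.03, beside 8.13% and 16.3% of all genes. With BDNF at 12 h 5 were higher and 4 lower (16.9% and 24.2% of all genes), with a median of 0.04. With IBET858 alone at 12 h 5 were higher and 6 lower (median 0.04), beside 22.9% and 25.8% of all genes, and in the combination against BDNF 4 were higher and 4 lower at 12 h, beside 21.1% and 25.6%. The summed level of these markers could not be given from centred values. Of 15 excitatory neuron markers, 3 were higher and 10 lower with IBET858 at 12 h (median -0.53), beside 22.9% and 25.8% of all genes. In the combination against BDNF 2 were higher and 9 lower (median -0.41), beside 21.1% and 25.6%. Their median per array was -0.48 to -0.37 in BDNF+IBET858 and -0.0350 to 0.0172 in BDNF at 12 h, and -0.41 to -0.18 in IBET858 and -0.14 to 0.0669 in DMSO. Of 12 general neuron markers, 4 were higher and 5 lower with IBET858 at 12 h (median -0.11). In the combination against BDNF 4 of these 12 were higher and 4 lower (median -0.01).

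Markers of other cells were followed at 12 h as well. Of all genes, 22.9% were called higher and 25.8% lower with IBET858 at 12 h. In the combination against BDNF the shares were 21.1% and 25.6%. Of 9 microglia markers, limma called 0 higher and 4 lower with IBET858 (0 and 4 at an unadjusted p under 0.05; median -0.29), and their median per array was -0.40 to -0.33 in IBET858 and -0.0907 to -0.0260 in DMSO. In the combination against BDNF limma called 0 of these higher and 3 lower (0 and 4 at an unadjusted p under 0.05; median -0.17). Of 12 astrocyte and progenitor markers, 1 was higher and 5 lower with IBET858 (median -0.17), with medians per array of -0.24 to -0.0713 in IBET858 and -0.0391 to 0.30 in DMSO, and 1 was higher and 2 lower in the combination against BDNF (median 0.02). Of 9 oligodendrocyte lineage markers, 1 was higher and 2 lower in either comparison (medians -0.21 with IBET858 and -0.14 in the combination against BDNF). Of 11 vascular and fibroblast markers, 2 were higher and 2 lower with IBET858 (median 0.07). In the combination against BDNF 1 of these was higher and 1 lower (median 0.00). The part of any of these marker lists in the results above was not tested.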

How the data were processed

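RNA of 24 arrays was measured by the authors on Affymetrix mouse arrays. The deposited log2 values were made by the authors with RMA, per the submitters' processing notes, which corrects background, makes the distributions of all arrays equal and gives 1 value per probe set; the deposited table then held a median of 0 over the arrays for 45101 of 45101 probe sets (tolerance 1e-06). A change in the total mRNA of a cell is lost under RMA. Gene names came from GEO's annotation of the platform, a gene's probe sets that name no other gene were averaged, and dim ones were kept. Differences were tested with limma 3.58.1 in R 4.3.3 on all 24 arrays, with 8 group means, 16 residual degrees of freedom, eBayes, two-sided tests and Benjamini-Hochberg adjustment over 18194 genes in each of 12 comparisons. Before use on the data the fit was tested on simulated data. For arrays, their number limits the precision. Samples were grouped by their labels.

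Values on every array are given for up to 14 genes with a called, non-overlapping change of at least 1.5-fold, and for genes whose 2 h call is lost without DMSO at 2 h replicate 1; those of Cartpt and Scg2 were added after their values were seen. The members and lists were chosen with earlier results of these data known. Of each related list, up to 3 called genes per comparison could be named. Replicate numbers were not used as pairs: of 18 same-number pairs of arrays at each time, the deviations of 2 at 2 h and 0 at 12 h correlated above 0.1. Of 36 pairs with different numbers at each time, 2 at 2 h and 4 at 12 h did. The median correlation was -0.017 at 2 h and -0.02 at 12 h for the same number, and -0.002 and 0.007 for different numbers. The alternatives were array weights, arrays of 1 time only, a replicate block, array medians subtracted, a robust prior, 1 probe set per gene, a 1.5-fold minimum and leaving out arrays. An intensity-dependent rescaling was not run, since centred values hold no intensity.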

Additional observations from a re-analysis of the deposited data

Results flagged for a closer look

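These results are differences between groups that passed a test of the difference itself, with limma's adjusted p under 0.05; no explanation was tested. In the interaction of BDNF and IBET858 at 2 h they were Adcyap1 (-1.77) and Chga (0.59). In the interaction at 12 h they were Adcyap1 (-1.39), Crh (-1.31), Penk (-1.01), Tac1 (-0.90), Chga (0.32) and Chgb (0.36). A negative value is a smaller or more negative response to BDNF in the presence of IBET858.

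The effect of IBET858 at 12 h minus that at 2 h was negative for Cadps2 (-2.62), Vip (-1.59), Adcyap1 (-1.43), Crh (-1.27), Pam (-1.27), Cartpt (-1.12), Pnoc (-0.71), Cadps (-0.45), Chgb (-0.43), Cck (-0.36) and Penk (-0.31). It was positive for Chga (0.48) and Tac1 (0.35). Without DMSO at 2 h replicate 1, Cadps2 stood at -1.60, Adcyap1 at -0.75, Cartpt at -0.73, Pnoc at -0.44 and Penk at -0.18, and Penk was no longer called. The Penk call was also lost with array weights (-0.20), array medians subtracted (-0.32) or 1 probe set per gene (-0.31). Leaving out any 1 IBET858 array, or DMSO at 12 h replicate 2 or 3, ended it too (-0.34 to -0.28). The Cck call was lost without IBET858 at 2 h replicate 1, DMSO at 12 h replicate 2 or IBET858 at 12 h replicate 1 (-0.33 to -0.26).

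The effect of BDNF at 12 h minus that at 2 h was positive for Pnoc (1.42), Crh (1.33), Gal (1.17), Tac1 (0.97), Penk (0.78), Ptprn (0.59) and Cck (0.44). It was negative for Chgb (-0.68), Sst (-0.52), Pcsk1n (-0.47), Scg5 (-0.39), Tac2 (-0.37), Ptprn2 (-0.37), Scg3 (-0.33) and Chga (-0.33). Sst was -0.26 without DMSO at 2 h replicate 1, and its call was lost when any of 8 other arrays was left out (-0.55 to -0.48).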

How the results depend on the processing

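Counts are of the 31 genes called. A number in brackets after a count is that of all 18194 genes called in the same setting. With a 1.5-fold minimum, IBET858 against DMSO gave 2 (555) at 2 h and 11 (2811) at 12 h. For BDNF against DMSO these were 9 (1036) and 13 (1956). For BDNF+IBET858 against BDNF they were 3 (1249) and 12 (3107). BDNF+IBET858 against IBET858 at 12 h gave 8 (1556). The change with time gave 7 (2293) for the IBET858 effect and 7 (1418) for the BDNF effect. With array weights, BDNF+IBET858 against BDNF at 2 h gave 11 (6413, against 4928 in the main fit). The interaction at 2 h gave 5 with weights (2732, against 1529 in the main fit). With 2 h arrays only, the interaction at 2 h gave 1 (1356). With both arrays of largest deviation (DMSO at 2 h replicate 1, IBET858 at 12 h replicate 3) left out, the interaction at 12 h gave 10 (3548). Adcyap1 turned from 0.11 to -0.57 for IBET858 against DMSO at 2 h without DMSO replicate 1, to -0.50 with array weights and to -0.57 without both arrays; leaving out 1 array at a time gave -0.57 to 0.49. Leaving out 1 array at a time gave, at 2 h and 12 h, 4 to 12 (2148 to 2872) and 16 to 19 (8043 to 9278) for IBET858 against DMSO. It gave 15 to 20 (4198 to 5138) and 22 to 25 (6664 to 7841) for BDNF against DMSO. For BDNF+IBET858 against BDNF it gave 4 to 13 (4153 to 5437) and 16 to 23 (7871 to 8843). For BDNF+IBET858 against IBET858 it gave 7 to 12 (2968 to 4316) and 17 to 23 (6181 to 7615). The interaction had 2 to 8 (1213 to 1704) and 5 to 8 (2321 to 3594). The change with time had 10 to 14 (5520 to 6338) for IBET858 and 14 to 21 (3956 to 5026) for BDNF. With the replicate block, which the numbers do not support as pairs, the call of Trh in BDNF+IBET858 against IBET858 at 2 h (0.27) and of Penk in the IBET858 effect with time (-0.31) were lost. Of 155 calls among 372 changes (31 genes in 12 comparisons), the robust prior kept 155, 1 probe set per gene 154 and array medians subtracted 153; array weights kept 153 and gained 36, and leaving out DMSO at 2 h replicate 1 kept 146 and gained 32. The causes were not tested. Precision is limited by 3 arrays a group and by 1 DMSO array at 2 h.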
